A study of Mus musculus with 4 samples.

Results

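Major histocompatibility complex (MHC) molecules carry peptides to the cell surface for T cells to read, and 10 genes of this system are described here in luminal cells of the mouse mammary gland. They are *H2-K1*, *H2-D1*, *B2m*, *Tap1*, *Tapbp* and *Psmb8* of the class I route and *Cd74*, *H2-Aa*, *H2-Ab1* and *H2-Eb1* of the class II route. They were picked by name, and all 10 were found among the 52636 genes of the table. Luminal cells were sorted from the glands of 6 week old female C57BL/6N mice, either *Erbb3* +/+;MMTV-Cre (wild-type) or *Erbb3* V943R/V943R;MMTV-Cre (V943R). V943R replaces a valine of the ERBB3 receptor through which ERBB3 activates its dimer partner, and both genotypes carried MMTV-Cre, a recombinase whose promoter is active in mammary epithelium, so the mutant allele was switched on mainly there. Glands of 3 mice per genotype were pooled before sorting, and each pool gave 2 droplet 3′ libraries, named A and B below in an order that pairs nothing. Library differences therefore show technical spread and not spread between mice, and no test between genotypes was possible.

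The 4 libraries held 6849 to 9627 cells and 30019745 to 38009351 unique molecular identifiers (UMIs, which count captured RNA molecules), and 511 cell barcodes occurred in more than 1 library. Median UMIs per cell were 3154 to 4027. *Erbb3*, the targeted gene, was at 59.3 and 61.1 CPM (UMIs of the gene per 1000000 UMIs of the same cells) in mature luminal cells of the wild-type libraries. It was at 27.1 and 28.6 CPM in the V943R libraries, and its counts were also lower in the other luminal classes. By the paper's design, the knock-in transcript ends in sequence of human growth hormone before Cre acts. The part of this ending in the *Erbb3* counts was not tested. A missense change need not alter the mRNA level, so these values do not check the allele itself. The cells carried the authors' labels of 13 clusters, of which clusters 1 and 2 are luminal progenitor (LP), cluster 3 is luminal intermediate (LI), clusters 4 to 11 are mature luminal (ML), and clusters 12 and 13 are rare. The labels fitted their markers: in wild-type cells *Kit* was at 219 CPM in LP, 93.9 CPM in LI and 2.68 CPM in ML, and *Prlr* at 262, 1655 and 2125 CPM. Basal *Krt5* was at 1.76 CPM or less in these wild-type classes. In wild-type cells of cluster 13 the leukocyte gene *Ptprc* was at 44.8 CPM, against 0.0275 CPM over all wild-type luminal cells. There 13 of 18 immune markers had a UMI, without any UMI of the T cell genes *Cd3e* and *Cd3d* or of *Csf1r*, *Itgax* and *Nkg7*. Cluster 12 held *Col1a1* at 1533 CPM and *Pecam1* at 276 CPM, marks of fibroblasts and of endothelium.

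Class I molecules are made by nearly all nucleated cells. A heavy chain (*H2-K1* and *H2-D1* encode the classical ones of this strain) pairs with beta-2 microglobulin, encoded by *B2m*, and holds a peptide cut in the cytosol by the proteasome, pumped into the endoplasmic reticulum by a transporter that contains TAP1, and loaded with the help of tapasin, encoded by *Tapbp*. *Psmb8* encodes a catalytic subunit that replaces its constitutive counterpart in the immunoproteasome. Class II molecules pair an alpha chain with a beta chain (*H2-Aa* with *H2-Ab1*, while *H2-Eb1* encodes another beta chain). They are guarded by the invariant chain encoded by *Cd74*, present ingested proteins and belong mainly to B cells, dendritic cells and macrophages. Interferon gamma raises both sets.

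Of the members, 8 lie in the MHC region of chromosome 17. In GRCm38, *Tapbp* lies at chr17:33915899-33929292, *H2-K1* at chr17:33996017-34000347, *Tap1* at chr17:34187553-34197225, *Psmb8* at chr17:34197721-34201454, *H2-Ab1* at chr17:34257689-34269419, *H2-Aa* at chr17:34282744-34287823, *H2-Eb1* at chr17:34305867-34316674 and *H2-D1* at chr17:35262730-35267499. *B2m* lies apart, at chr2:122147686-122153083. The promoters of the 3 class I chain genes are shown because these genes were lower together in V943R libraries below. RefSeq and the annotation used for the positions above place the start of *H2-D1* differently, so its stretch lies inside the interval given for the gene. The stretches lie within the 250 bases before the start site in RefSeq (GRCm38.p6) and are written 5′ to 3′ on the gene's strand, and capitals mark letters found by search on either strand.

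*H2-K1*, chr17:34000351-34000466, minus strand: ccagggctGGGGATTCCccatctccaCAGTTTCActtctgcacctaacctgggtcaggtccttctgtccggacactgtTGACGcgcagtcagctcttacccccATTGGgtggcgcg
*H2-D1*, chr17:35262915-35263053, plus strand: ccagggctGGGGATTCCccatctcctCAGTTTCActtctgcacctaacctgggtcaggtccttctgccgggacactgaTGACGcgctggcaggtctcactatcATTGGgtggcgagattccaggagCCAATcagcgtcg
*B2m*, chr2:122147539-122147646, plus strand: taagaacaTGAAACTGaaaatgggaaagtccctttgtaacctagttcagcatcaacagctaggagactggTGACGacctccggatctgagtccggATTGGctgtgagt

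Searched on both strands, the letters were GGGGATTCC (an NF-kB site), TGAAACTG (letters of an interferon response element, chosen after these promoters were read), TGACG (the core of a cAMP response site) and CCAAT. None of these matches overlapped another in the 3 stretches. *H2-K1* and *H2-D1* held all 4, and *B2m* held all but the NF-kB letters. Of the other class I members, whose stretches are not shown, *Psmb8* held none of the 4, *Tapbp* only CCAAT, and *Tap1* TGACG and CCAAT. *Psmb8* and *Tapbp* were also lower in all 3 luminal classes below. Over the 250 bases before the start of 32851 promoters, 0.213% held GGGGATTCC, 1.12% TGAAACTG, 17.8% TGACG and 33.8% CCAAT. Aligned from the first base shown, *H2-K1* and *H2-D1* were identical at 104 of 116 bases (89.7%). A match is a description of letters and not of binding. The mRNA ends that 3′ libraries count were compared by shared windows, a measure that cannot be set against the base identity of the promoters. Among 451 windows of 50 bases in the last 500 bases of its longest transcript, *H2-K1* shared 2 with another gene, *H2-D1*, while *H2-D1* shared 43 with 80 genes. The other 8 members shared none.

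Levels of the class I members were higher in ML than in LP cells. *H2-K1* was at 492 and 513 CPM in LP cells of the wild-type libraries, at 680 and 729 CPM in LI cells and at 773 and 828 CPM in ML cells. *H2-D1* stood at 1020 and 1059 CPM in LP, 1423 and 1458 CPM in LI and 1634 and 1679 CPM in ML. *B2m* was at 401 and 425 CPM in LP, 698 and 751 CPM in LI and 876 and 925 CPM in ML. For each of the 3, no wild-type library of one class overlapped one of another class. In wild-type cells the ML level was 1.59 times the LP level for *H2-K1* (log2 ratio 0.67, 95% interval 0.63 to 0.72, counting error only, as for all intervals here), 1.59 times for *H2-D1* and 2.18 times for *B2m*. Of the peptide supply genes, *Psmb8* had the widest ratio, 2.26 times, followed by *Tapbp* with 1.37 times and *Tap1* with 1.18 times. The classes were drawn by the authors from the same cells, so these levels are a description.

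Among the 11 luminal clusters, the class I chains were lowest in the LP clusters 1 and 2 and highest in clusters 11 and 7, with cluster 9 between these for *H2-K1*. *H2-K1* ran in wild-type cells from 452 CPM in cluster 2 to 980 CPM in cluster 11, *H2-D1* from 987 CPM in cluster 2 to 1949 CPM in cluster 11 and *B2m* from 411 CPM in cluster 1 to 1033 CPM in cluster 11. For *H2-K1*, clusters 11, 9 and 7 overlapped each next one in the order, as did clusters 6, 4, 5 and 8, while for *H2-D1* most neighbouring ML clusters lay apart. Cluster 10 was the lowest ML cluster for *H2-K1* (617 CPM), *H2-D1* (1387 CPM) and *B2m* (641 CPM). *Tap1* varied least, from 34.8 CPM in cluster 2 to 56.3 CPM in cluster 7. *Psmb8* was at 224 CPM in both LP clusters and at 568 CPM in cluster 7. The genes whose wild-type levels over the 11 clusters were most like the mean of the 3 chains, by Pearson's r of log2(CPM + 1) among 10632 genes, were *Ccdc136*, *1700023F06Rik*, *Tnfsf9*, *Psme1* and *Atp2c2* (r = 0.97 to 0.98, and 0.81 to 0.97 in V943R cells). *Psme1* encodes a subunit of the proteasome activator PA28, and the clusters share libraries and differ in depth, so this likeness is a description over 11 points.

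In V943R libraries the class I members other than *Tap1* were lower in all 3 luminal classes, and *Tap1* was lower in LP cells. The widest difference was that of *B2m* in LI cells, a change of -26.1%. A member was counted as lower where both V943R libraries lay below both wild-type libraries and at least 50 UMIs were found in the genotype with more. In LP cells 6 of the 7 members with enough UMIs were lower and 0 were higher, where 18.1% of 11219 genes were lower and 23.1% higher. In LI cells 5 of 7 were lower and 0 higher, against 22.5% and 23.2% of 10525 genes. In ML cells 5 of 9 were lower and 2 higher, against 26.7% and 27.6% of 15157 genes. The higher members were *Cd74* and *H2-Ab1* in ML cells. None of the members with enough UMIs was lower by 1.5-fold without overlap, a size that 0.606% of genes reached downward in LP, 1.03% in LI and 1.57% in ML with libraries that did not overlap.

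*B2m* showed the largest difference of the 3 chains in each class. In LP cells it was at 324 and 335 CPM in the V943R libraries, a log2 change of -0.33 (95% interval -0.40 to -0.26) from the wild-type values above. In LI cells the V943R libraries held 521 and 551 CPM (-0.44, -0.49 to -0.38), and in ML cells 719 and 753 CPM (-0.29, -0.31 to -0.27). In each class the gap between genotypes was wider than the gap between libraries of a genotype.

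*H2-K1* was at 421 and 451 CPM in V943R LP cells (-0.20, -0.26 to -0.14), 554 and 549 CPM in LI cells (-0.35, -0.41 to -0.29) and 640 and 685 CPM in ML cells (-0.27, -0.30 to -0.25). *H2-D1* was at 964 and 947 CPM in LP cells (-0.12, -0.17 to -0.08), 1205 and 1222 CPM in LI cells (-0.25, -0.29 to -0.21) and 1439 and 1452 CPM in ML cells (-0.20, -0.21 to -0.18). Both heavy chains thus differed most in LI cells and least in LP cells, as values, with the difference between classes not tested.

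*Psmb8* was at 222 and 226 CPM in wild-type LP cells and at 187 and 178 CPM in V943R LP cells (-0.29, -0.39 to -0.20). In LI cells its 4 libraries stood at 410, 426, 393 and 377 CPM (-0.12, -0.19 to -0.04), and in ML cells at 495, 516, 450 and 457 CPM (-0.16, -0.18 to -0.13), wild-type A and B first. Its libraries did not overlap in any class. *Tapbp* differed least of the members lower in all 3 classes. Its log2 change was -0.05 (-0.17 to 0.08) in LP cells, -0.09 (-0.22 to 0.03) in LI cells and -0.13 (-0.17 to -0.08) in ML cells, with libraries at 164, 166, 151 and 151 CPM in ML cells. *Tap1* was at 43.6 and 43.3 CPM in wild-type LP cells and at 36.2 and 35.7 CPM in V943R LP cells (-0.27, -0.49 to -0.05). In ML cells *Tap1* libraries overlapped, at 49.7, 52.5, 50.3 and 51.4 CPM (-0.01, -0.09 to 0.07).

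**Figure D1:**
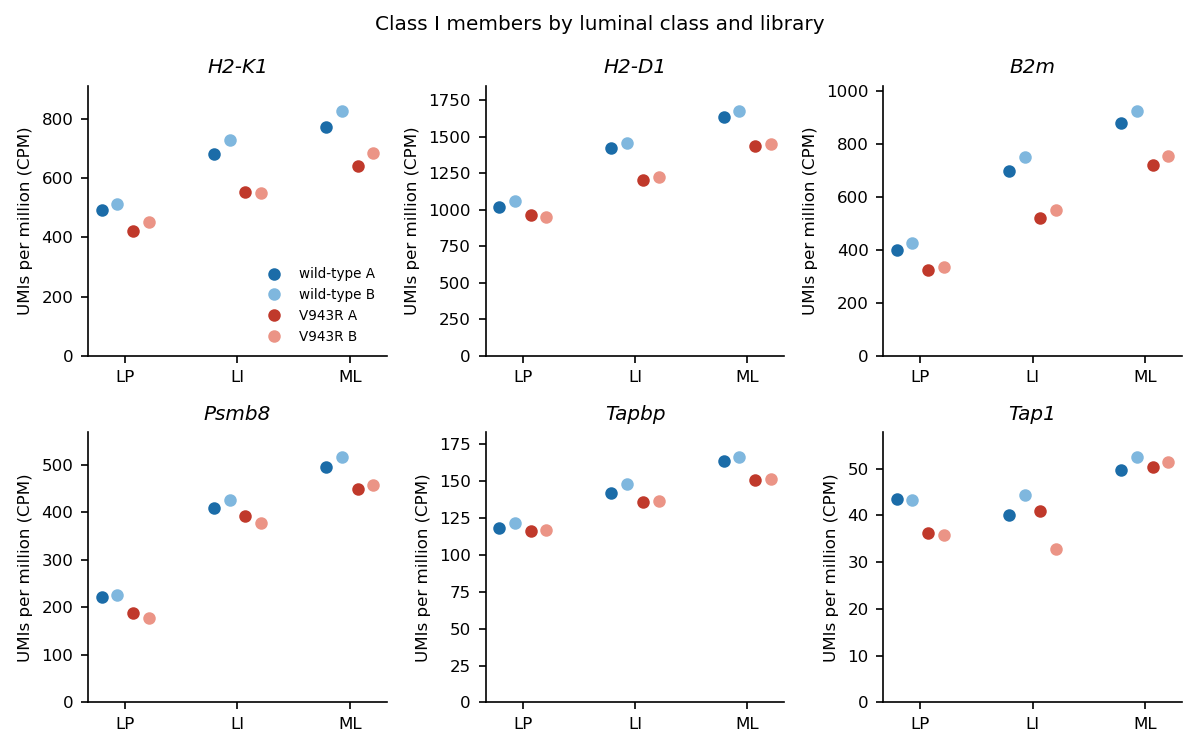
Level of the 6 class I members (vertical axis, CPM, from 0) in LP, LI and ML cells. Each point is 1 library, and the 2 V943R libraries lie below both wild-type libraries in every panel and class except for *Tap1* in LI and ML cells.

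The median log2 change over all genes tested was 0.02 in LP, 0.00 in LI and 0.00 in ML cells, so the middle of all genes lay near 0. The median over the 3 chains was -0.20 in LP, -0.35 in LI and -0.27 in ML cells. The LP value of *B2m*, -0.33, was -0.19 as a mean over cells and -0.23 without the 5% of cells with the most UMIs.

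**Figure D2:**
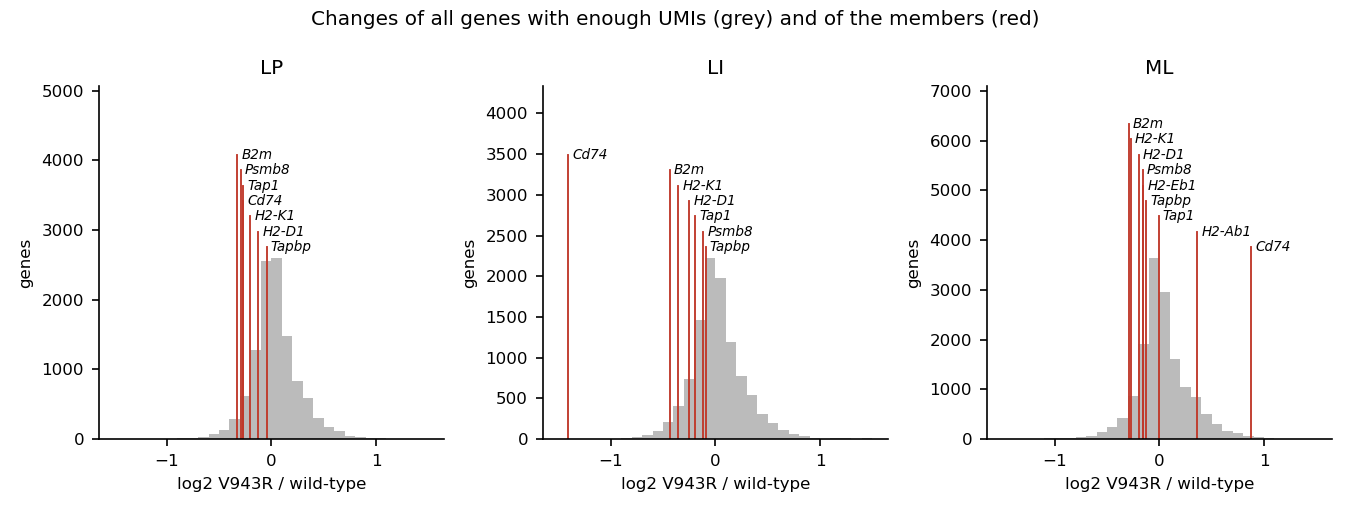
Number of genes (vertical axis) by log2 change, V943R over wild-type (horizontal axis), in LP, LI and ML cells. Grey bars are all genes with at least 50 UMIs in 1 genotype, and red lines are the members with enough UMIs. The class I members lie at or left of 0, and *Cd74* lies far left in LI and far right in ML cells.

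By cluster, the log2 change of *H2-K1*, *H2-D1*, *B2m* and *Psmb8* was below 0 in 11 of 11 luminal clusters. Libraries did not overlap in 10 clusters for *H2-K1* and *H2-D1*, 9 for *B2m* and 11 for *Psmb8*. *Tapbp* was lower without overlap in 6 clusters and overlapped in 5, with changes above 0 in clusters 8 (0.04) and 10 (0.06). *Tap1* was lower in 4 clusters, higher in 2 and overlapped in 5. Of all genes with enough UMIs, the share that was lower without overlap was, in clusters 1 to 11 in turn, 17.4%, 19.1%, 22.5%, 23.1%, 21.4%, 23.4%, 26.0%, 22.8%, 22.6%, 24.2% and 18.7%. The changes of *B2m* reached from -0.50 in cluster 2 to -0.02 in cluster 10. Libraries overlapped in cluster 10 for all 3 chains and in cluster 9 for *B2m*. *H2-K1* was there at 599 and 634 CPM in wild-type and at 615 and 604 CPM in V943R libraries (-0.02, -0.07 to 0.03), *H2-D1* at 1409, 1367, 1377 and 1381 CPM (-0.01, -0.04 to 0.03), and *B2m* at 647, 636, 619 and 645 CPM (-0.02, -0.07 to 0.03). Cluster 7, which had the widest luminal changes of *H2-K1* and *H2-D1*, showed -0.37, -0.26 and -0.42 for the same 3 genes. The difference between these clusters was not tested. *Psmb8* in cluster 10 had a change of -0.09 (-0.15 to -0.02), as in cluster 8 (-0.09).

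In the rare clusters the picture was mixed. *Psmb8* had changes of -0.32 (-1.19 to 0.51) in cluster 12 and -0.09 (-0.34 to 0.17) in cluster 13, with overlapping libraries. In cluster 13, *H2-D1* was at 2892 CPM in wild-type and 2884 CPM in V943R cells (0.00, -0.15 to 0.15), and *H2-K1* at 1203 and 1172 CPM (-0.04, -0.27 to 0.20). *B2m* was at 4307 and 3967 CPM there (-0.12, -0.24 to 0.01), and libraries of the genotypes overlapped for all 3. In cluster 12, with 43 wild-type and 33 V943R cells, *H2-K1* was higher (0.68, 0.29 to 1.08), as were *H2-D1* (0.48) and *B2m* (0.48). The share of all genes that was higher without overlap in cluster 12 was not counted, so little can be read from these directions. The makeup of cluster 12 differed too, with *Col1a1* at 1533 against 3094 CPM and the luminal keratin *Krt18* at 3734 against 702 CPM, and the part of this in the class I values was not tested.

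**Figure D3:**
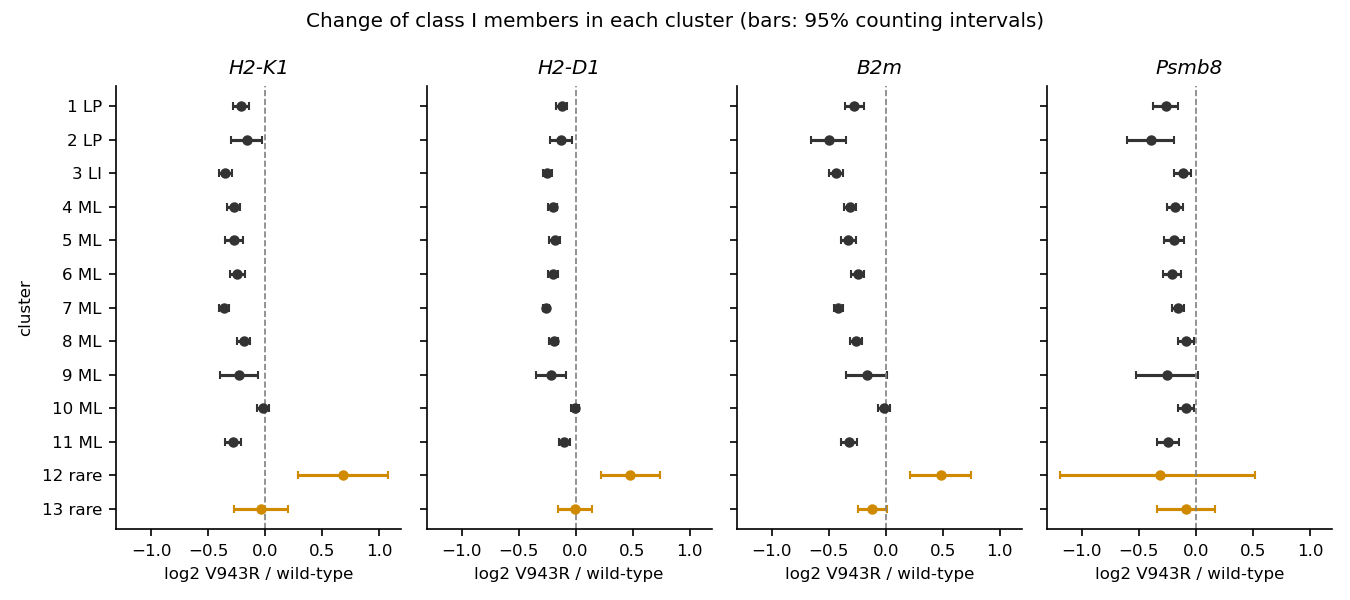
Log2 change, V943R over wild-type (horizontal axis), of *H2-K1*, *H2-D1*, *B2m* and *Psmb8* in each cluster (vertical axis). Points are pooled values of the libraries and bars are 95% counting intervals. Luminal clusters (black) lie left of 0, with cluster 10 at or next to 0, and of the rare clusters (orange), cluster 12 lies right of 0 for the 3 chains but not for *Psmb8*, while the intervals of cluster 13 include 0.

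The mutant pool held fewer cells of cluster 11 (670 against 2863), a cluster rich in class I RNA. With the cluster makeup of wild-type cells, the ML change was -0.24 for *H2-K1*, -0.16 for *H2-D1*, -0.28 for *B2m* and -0.17 for *Psmb8*, against -0.27, -0.20, -0.29 and -0.16 as measured. V943R cells were also deeper, with a median of 4070 against 3508 UMIs in ML cells. Cells were therefore set side by side within 5 bins of UMIs per cell, a split added after seeing the data. In ML cells *H2-K1*, *H2-D1*, *B2m* and *Psmb8* were lower in 5 of 5 bins, without overlap of libraries. In LI cells the 3 chains and *Psmb8* had changes below 0 in every bin. Libraries overlapped there for *H2-K1* in bin 2, for *H2-D1* in bins 2 and 3 and for *Psmb8* in bins 1 and 4. *H2-D1* was there at -0.0086 in bin 2, -0.15 in bin 3 and -0.16 in bin 4, against -0.25 over all LI cells. In LP cells the difference was not even over depth: *B2m* was at 352 and 369 CPM in the shallowest bin (0.07, libraries overlapping) and at 470 and 320 CPM in the deepest (-0.56, no overlap). Libraries also overlapped for *H2-K1* in LP bins 1 and 4 (-0.17 and -0.05) and for *Psmb8* in LP bins 1 and 3 (-0.06 and -0.12). The same held for *B2m* in LP bin 2 (-0.19) and for *H2-D1* in LP bins 1 (-0.05) and 2. *H2-D1* had a change of 0.04 in the second LP bin, and *Tapbp* was above 0 in LI bins 1 to 4 (0.02 to 0.09), while its LI value over all cells was below 0.

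**Figure D4:**
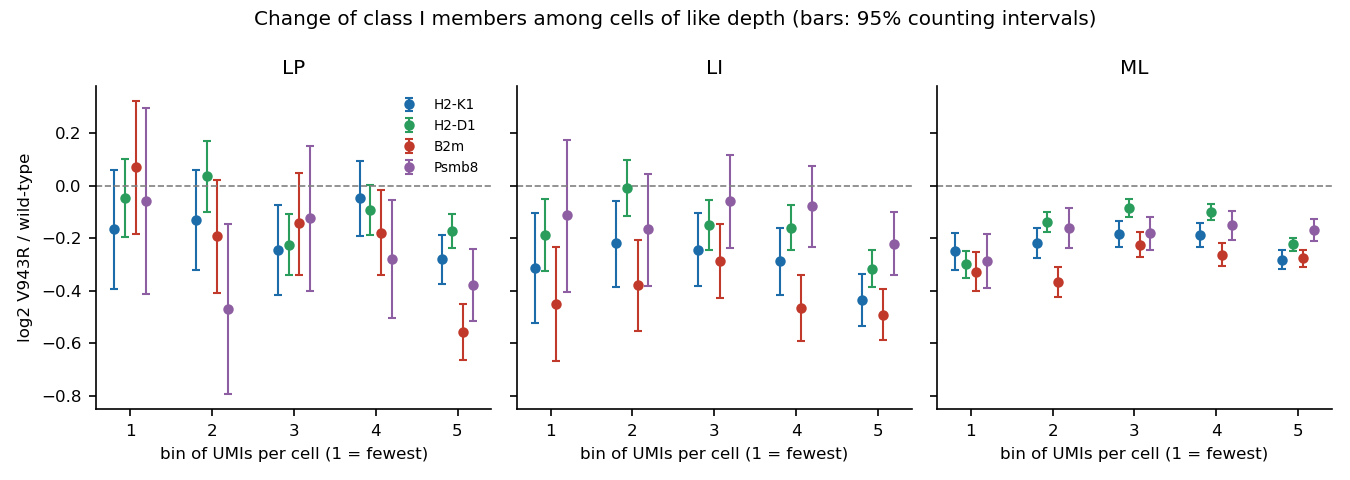
Log2 change, V943R over wild-type (vertical axis), of *H2-K1*, *H2-D1*, *B2m* and *Psmb8* in 5 bins of UMIs per cell (horizontal axis, bin 1 with the fewest), for LP, LI and ML cells. Bars are 95% counting intervals. All ML points lie below 0, and in LP cells the points of *B2m* run from 0.07 in bin 1 to -0.56 in bin 5.

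Single cells showed the same order in LP, LI and ML cells. When each cell was thinned to 1000 UMIs, with 45 wild-type and 252 V943R cells left out as shallower, wild-type ML cells held a mean of 3.44 UMIs of the 3 chains, and V943R ML cells 2.90. The values were 2.97 and 2.40 in LI cells and 1.85 and 1.71 in LP cells. In cluster 10 they were 2.63 and 2.62. In cluster 2 they were 1.64 and 1.59, and V943R B (1.780) lay above both wild-type libraries (1.528 and 1.777). ML cells with 5 or more of these UMIs made up 27.9% in wild-type and 19.5% in V943R, and those with none 6.62% and 9.18%. After thinning, *B2m* was found in 54.5% of wild-type ML cells (exact binomial interval 53.6 to 55.3) and 49.0% of V943R ML cells (47.98 to 49.99), and in 87.4% and 85.9% without thinning. Detection of a chain was modestly more frequent where another was found: among thinned wild-type ML cells, *H2-K1* was found in 56.9% of cells with a *B2m* UMI and in 50.1% of those without. *Tap1* was found in 5.48% of cells with a *Psmb8* UMI and in 5.08% of those without.

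Of 60 other genes of the pathway, 39 had enough UMIs in LP cells, with 5 lower and 10 higher. In LI cells 23 of 41 were lower and 5 higher, and in ML cells 18 of 49 were lower and 8 higher, to be read against the shares of all genes above. Their median log2 change was -0.01, -0.11 and -0.06. The 2 other immunoproteasome subunits followed *Psmb8* in LI and ML cells. *Psmb10* was at 67.0, 68.5, 49.2 and 52.9 CPM in LI cells (-0.41, -0.60 to -0.22), and at 66.7, 70.2, 53.2 and 56.9 CPM in ML cells (-0.31). *Psmb9* changed by -0.31 in LI and -0.20 in ML cells, and both genes overlapped in LP cells.

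Of the 3 constitutive catalytic subunits, *Psmb5* and *Psmb7* were higher in some or all classes and *Psmb6* was lower in LI and ML cells. *Psmb5*, the counterpart that PSMB8 replaces, was higher in V943R LP cells, at 30.5 and 31.7 against 52.6 and 46.9 CPM (0.67, 0.45 to 0.90), and in ML cells, at 44.5 and 45.7 against 62.5 and 53.4 CPM (0.36). *Psmb7*, the counterpart of *Psmb10*, was higher in LP (0.24), LI (0.35) and ML cells (0.24). *Psmb6*, the counterpart of *Psmb9*, was lower in LI (-0.11) and ML cells (-0.06).

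Of the peptide transporter, *Tap2* was lower in LI (-0.12) and ML cells (-0.10) and overlapped in LP cells. Of 15 other class I heavy chain genes, 4 had enough UMIs in LP cells, with 0 lower and 1 higher (*H2-T23*) and a median change of 0.15. In LI cells 4 of 6 were lower and 0 higher. In ML cells 4 of 11 were lower and 3 higher, near the shares of 26.7% and 27.6% of all genes. *H2-Q7*, a nonclassical heavy chain gene, had the largest difference, at 15.9 and 13.2 against 8.54 and 7.67 CPM in LI cells (-0.85, -1.32 to -0.39). Genes of the *H2-Q* and *H2-T* families are near copies of each other, so reads may be split among them and these values are uncertain. Of 18 regulators, 2 of 16 were lower and 4 higher in LP cells, 7 of 16 lower and 3 higher in LI cells, and 6 of 17 lower and 2 higher in ML cells, with median changes of 0.04, 0.00 and -0.02. *Nfyc*, a subunit of the factor that binds CCAAT, was higher in all 3 classes. *Irf1*, a factor of the interferon response chosen after its values were seen, was lower in all 3, with changes of -0.18 in LP, -0.41 in LI and -0.37 in ML cells. *Nlrc5*, the transactivator of class I genes, was near the limit of counting with 119 and 85 UMIs in ML cells (-0.17, -0.59 to 0.24). *Ciita*, the transactivator of class II genes, had 1 UMI in 14188 wild-type and 0 in 9612 V943R ML cells, which allows up to 3 UMIs. Of the list, *Psmb5* and *Nfyc* (0.64) passed 1.5-fold upward in LP cells, where 2.23% of genes did so. *H2-Q7* passed it downward in LI cells, where 1.03% of genes did so. *H2-DMb2* (0.87, 47 and 69 UMIs) passed it upward in ML cells, where 2.86% of genes did so. The wild-type count of *H2-DMb2* was under the minimum of UMIs, so the gene entered only through its higher V943R count. Entry by that route favours an upward call, so little can be read from it.

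Class II members were at trace levels in luminal cells. Their summed level was 25067 CPM in wild-type and 30188 CPM in V943R cells of cluster 13, against 16.4 and 17.1 CPM in LP, 26.2 and 11.3 CPM in LI and 6.04 and 8.67 CPM in ML cells. In cluster 13 *Cd74* was found in 94.0% of 83 wild-type and 96.3% of 81 V943R cells, and in ML cells in 0.818% and 1.56%, at a median of 3508 and 4070 UMIs per cell. A share this low cannot be told from free RNA of other cells.

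**Figure D5:**
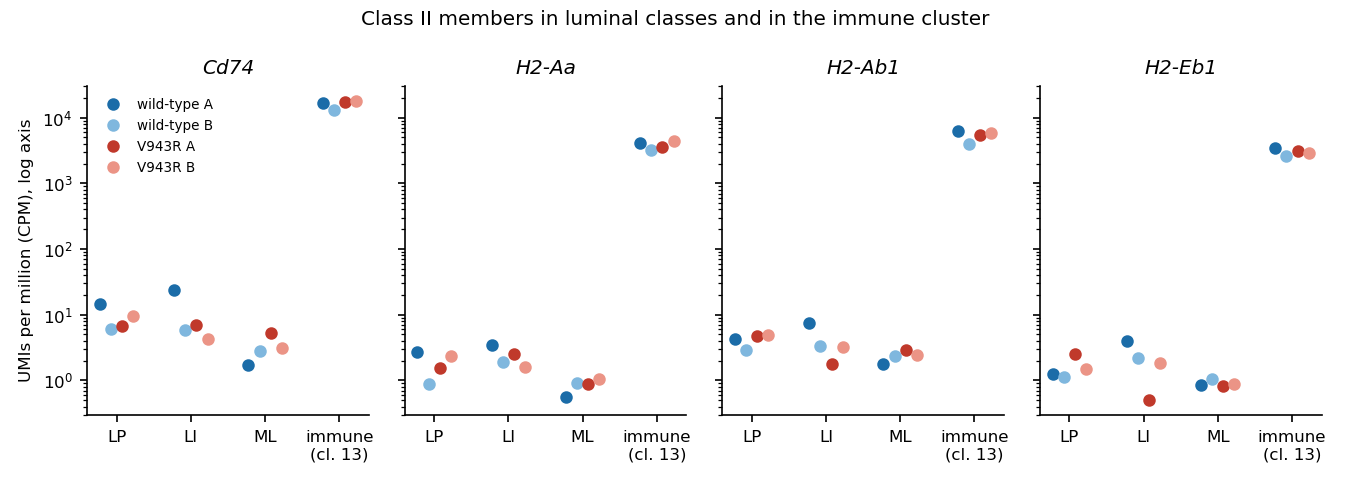
Level of the 4 class II members (vertical axis, CPM on a log axis) in LP, LI and ML cells and in cluster 13, with 1 point for each library. The luminal points reach 23.9 CPM at most, and the points of cluster 13 begin at 2613 CPM.

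A few cells held much of this signal. In wild-type LI cells, 4 of 1143 cells with 5 or more class II UMIs held 74.7% of the class II UMIs, and 3 of these 4 also had an immune marker UMI. Wild-type A carried most of this, with 87.7% of its class II UMIs in such cells and up to 65 UMIs in 1 cell, against 35.4% in wild-type B. In V943R LI cells the share was 26.1%. Such cells held 48.6% in wild-type LP and 37.2% in V943R LP cells, but 2.92% in wild-type ML and 13.4% in V943R ML cells. In ML cells the 343 wild-type class II UMIs were thus spread over 308 cells.

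Among members with at least 50 UMIs, *Cd74* in ML cells was the only one past 1.5-fold without overlap of libraries in LP, LI or ML cells, a size that 2.86% of genes reached upward in ML and 2.83% in LI cells. It was at 1.69 and 2.83 CPM in wild-type libraries and at 5.33 and 3.16 CPM in V943R libraries, from 46, 84, 117 and 75 UMIs (log2 change 0.88, 0.55 to 1.21). The libraries did not overlap, though V943R B lay close to wild-type B. Immune markers moved with it, since the 18 markers summed to 3.31 CPM in wild-type and 4.51 CPM in V943R ML cells (library range 3.09 to 3.51 and 4.003 to 5.06), with 14 and 15 of 18 found. *Nkg7* and *Ms4a1* were at 0 in both. The same sum was also higher in V943R cells of LP (8.10 and 14.4 CPM) and LI (5.81 and 11.7 CPM), where *Cd74* was not higher. The part of these markers in the *Cd74* value was not tested. Without the cells of 5 or more class II UMIs the change was 0.62, and without cells that held an immune marker UMI it was also 0.62. The first of these cuts counts *Cd74* UMIs themselves, so it is no separate check. The cells it removed held 53 class II UMIs in V943R and 10 in wild-type ML cells. Leaving out wild-type A or V943R A ended the 1.5-fold call, with changes of 0.57 and 0.46. *Cd74* was also not among the members that limma called on library sums of ML cells.

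*H2-Ab1* in ML cells was at 1.77 and 2.33 CPM in wild-type and at 2.87 and 2.44 CPM in V943R libraries (0.36, -0.02 to 0.74), without overlap. *H2-Aa* had 42 and 44 UMIs and *H2-Eb1* 54 and 39 UMIs in ML cells, and their libraries overlapped. In LP cells *Cd74* stood at 14.4, 6.02, 6.83 and 9.52 CPM, and in LI cells at 23.9, 5.78, 7.03 and 4.23 CPM, so the wild-type libraries differed among themselves by more than the genotypes. The pooled LI change of -1.40 (-1.94 to -0.89) came with overlapping libraries. The other class II members had under 50 UMIs in LP and LI cells. Below that minimum, libraries did not overlap for *H2-Ab1* (-1.14, 40 and 19 UMIs) and *H2-Eb1* (-1.42, 23 and 9 UMIs), both lower in LI cells. Nor did they for *H2-Ab1* (0.46, 30 and 42 UMIs) and *H2-Eb1* (0.74, 10 and 17 UMIs), both higher in LP cells. The share of all genes under the minimum that did not overlap was not counted, so little can be read from these directions. The 4 members summed to 38.8 and 13.2 CPM in wild-type LI cells and to 11.8 and 10.8 CPM in V943R LI cells (-1.21, -1.59 to -0.84), without overlap, and most of the gap lay in wild-type A.

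In ML cells the class II genes were in other proportions than in cluster 13. *H2-Ab1* made up 24.3% of the summed *H2-Ab1* and *Cd74* UMIs in cluster 13 (exact binomial interval 23.1 to 25.5 in wild-type, 23.2 to 25.5 in V943R), against 47.4% (41.0 to 53.8) in wild-type ML and 38.7% (33.2 to 44.3) in V943R ML cells. In LP cells the shares were 26.1% (18.3 to 35.1) in wild-type and 36.8% (28.0 to 46.4) in V943R. The V943R LP libraries stood at 41.3% (27.0 to 56.8) and 33.8% (22.8 to 46.3), and the second interval includes the cluster 13 share. Of the V943R LP class II UMIs, 37.2% lay in 3 cells, while the interval takes UMIs as independent. In LI cells they were 26.5% (19.6 to 34.3) and 30.2% (19.2 to 43.0), within counting error of cluster 13. Per immune marker UMI there were 4.73 and 4.01 class II UMIs in cluster 13, 1.82 and 1.92 in ML, 2.03 and 1.18 in LP and 4.51 and 0.967 in LI cells. Of ML cells with a class II UMI, 3.90% of wild-type and 5.54% of V943R cells also held an immune marker UMI, against 1.03% and 1.48% of the others. In thinned ML cells, 0 of 37 wild-type and 1 of 34 V943R cells with a *Cd74* UMI also had one of *H2-Ab1*. The genes most like the class II members over clusters were led by *Wdr89* (r = 0.92 in wild-type but 0.27 in V943R cells), a likeness in sparse counts from which nothing was read.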

How the data were processed

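Per the labels and the study's methods, the authors prepared droplet 3′ libraries, processed reads with CASAVA 1.8, bcl2fastq 2.20 and GSNAP (names from the submitters' processing notes, build GRCm38), and assigned clusters and cell types. The deposited values are a signal, UMIs multiplied by a factor for each cell by the authors. Each cell's values were divided by its smallest value above 0, which gave whole UMIs for 100% of values (tolerance 0.02). UMIs were summed per library and class and given as CPM, with no pseudocount. Total UMIs per library were 30019745 to 38009351. Log2 changes carry exact conditional binomial 95% intervals, levels exact Poisson and shares exact binomial (Clopper-Pearson) intervals, all for counting error only.

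Members are the 10 genes given by name, and the members and gene lists were chosen with earlier results of these data known. Named beside them are pathway genes past 1.5-fold without overlap, direct counterparts of members (such as *Psmb5*, *Tap2* and *Nlrc5*), the 5 genes most alike over clusters, and any gene said to be chosen after its values were seen. With glands of 3 mice mixed into a single pool per genotype, genotypes were compared without a test. Doublets were not called here, and the authors' filtering of cells was kept. Alternatives were leaving out each library, TMM factors, means over cells, other UMI minimums, cells of other depth, and limma 3.58.1 on library sums (R 4.3.3). Python 3.11.15, numpy 2.4.6, pandas 2.3.3 and scipy 1.17.1 were used.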

Additional observations from a re-analysis of the deposited data

Results flagged for a closer look

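Several genes lay lower in V943R libraries in some cells and higher in others, with no overlap of libraries on either side. None of these differences between cell groups was tested. *H2-K1* was higher in cluster 12 (log2 change 0.68), while its lowest change was -0.37 among the luminal clusters. *H2-D1* was higher there too (0.48, lowest luminal change -0.26), as was *B2m* (0.48, lowest -0.50). For cluster 12 the share of all genes higher without overlap was not counted, so little can be read from these reversals. *Tap1* was higher in clusters 7 and 8 (up to 0.13) and lower in clusters 1, 4, 10 and 11 (down to -0.27). Of these intervals only that of cluster 1 (-0.52 to -0.03) left out no change, with -0.10 to 0.22 in cluster 7 and -0.09 to 0.36 in cluster 8. In single luminal clusters 17.4% to 26.0% of all genes with enough UMIs were lower without overlap, so little can be read from these *Tap1* directions. *H2-T22*, a nonclassical heavy chain gene with near copies, had 0.16 in ML and -0.18 in LI cells. *Lgmn*, a lysosomal protease gene, had 0.11 in LP and -0.26 in LI cells. *Ifngr1*, an interferon gamma receptor gene, had 0.086 in LP cells and was lower in LI and ML cells, with a lowest change of -0.28. By class, 18.1% to 26.7% of all genes with enough UMIs were lower without overlap and 23.1% to 27.6% were higher. Little can therefore be read from the directions of these pathway genes.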

How the results depend on the processing

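The limits of these data are 1 pool of mice per genotype, counting error alone in the intervals, and few class II UMIs in luminal cells. Of 144 values of the 3 class I chains under the alternatives, 2 changed sign, *H2-D1* in LP bin 2 of UMIs per cell (0.035) and *B2m* in LP bin 1 (0.069). Leaving out a library could not change a sign for these chains, since their libraries did not overlap in any class. TMM factors moved the median change downward in each class, so they could not either. The values under these settings are therefore no check of the sign. *Tapbp* changed sign in LP cells as a mean over cells (0.00018) and in bins 1 and 2 (0.28 and 0.072), and in LI bins 1 to 4 (0.0203, 0.0864, 0.0837 and 0.0206). *Tap1* changed sign in LI bins 2 and 3 (0.15 and 0.20) and under 6 alternatives in ML cells, where its value was -0.01. Of 181 class II values 35 changed sign, among them *H2-Ab1* in ML bin 5 (-0.054). The cause was not tested. Members past 1.5-fold without overlap numbered 0 in LP cells, 0 to 1 when each library was left out (*Cd74* without wild-type B), 1 with no minimum of UMIs and 2 by limma. In LI cells they numbered 0, 0 to 1 when each library was left out (*Cd74* without wild-type B or without V943R A), 2 with a minimum of 20 UMIs or none, and 3 by limma. In ML cells they numbered 1, 0 to 1 when each library was left out (0 without wild-type A or without V943R A), 2 as means over cells and 3 by limma, which were *H2-K1*, *H2-D1* and *B2m* and not *Cd74*. limma counts members at an adjusted p under 0.05 at any fold and compares libraries, not mice. It put 226 of 11219 genes under 0.05 in LP, 307 of 10525 in LI and 909 of 15157 in ML cells. No paired analysis was possible because the table names libraries without the replicate numbers of the labels.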
